A study of Homo sapiens with 2 samples.

Results

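The genes described here encode centromere proteins, kinetochore proteins and kinesin motors, with the mitotic kinases that act on them. They are the protein-coding rows of the deposited table whose symbol is CENP followed by 1 or 2 letters, KIF with a number, or one of 15 named kinetochore and spindle genes. The rule found 75 genes among the 58302 listed, and 60 of them reached 1 FPKM (fragments per kilobase of transcript, scaled to the size of the library) in at least 1 library. The cells were HL60-EIF2S3, a stable line made from HL60, an established human promyelocytic leukemia line, with the Retro-X Tet-Off Advanced system. Both groups carry the system and its EIF2S3 transgene, which encodes a subunit of eIF2, the factor that brings initiator tRNA to the ribosome. In the group labelled DOX(-) the cells were untreated, so that the transgene is switched on by design. In the group labelled DOX(+) doxycycline (DOX) is meant to switch it off. The groups thus also differ in exposure to doxycycline itself, which cannot be told apart from the transgene here. Each group has 1 RNA-seq library, and the sources used here do not say whether the line is 1 clone, nor the doxycycline dose or its duration. The title of the series names the cell cycle, and the comparison asks which mitotic genes differ between the libraries.

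The centromere is the chromosomal site marked by nucleosomes that hold CENP-A in place of ordinary histone H3. On it sits the constitutive centromere-associated network, an inner layer that stays bound through the cell cycle, and at mitosis the outer kinetochore assembles on this layer and grips spindle microtubules through the NDC80 complex. The spindle checkpoint reads unattached kinetochores and delays anaphase. Kinesins are motors that move along microtubules or shorten them. Some build the spindle, move chromosomes and complete cytokinesis, and others carry vesicles and organelles in cells that are not dividing. Transcripts of many mitotic members are known to peak in late G2 and mitosis, under promoters with a cell cycle genes homology region and boxes bound by NF-Y.

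With 1 library a group there is no replicate check and no test between the conditions, and every comparison below is between these libraries. In each pair of values DOX(-) comes first. A difference is given as the log2 ratio of FPKM + 1, DOX(-) over DOX(+), so negative values are lower in DOX(-), and genes were called by size at 1.5-fold or more on this scale (a log2 ratio of 0.585). Counting intervals are 95% intervals of the plain FPKM ratio. They rest on fragments estimated on the shortest annotated transcript, which is the widest case, and cover counting error only. The libraries held 16577644 and 18521267 fragments, as recovered from the FPKM values. EIF2S3 itself was at 132.9 and 126.2 FPKM (log2 ratio 0.07). The counting interval of its ratio was 0.927 to 1.196 on the shortest transcript and 1.02 to 1.09 on the longest, so any difference in the labelled direction was small, and DOX(-) and DOX(+) below name the libraries as labelled. The 11525 genes tested, those at 1 FPKM or more in either library, had a median log2 ratio of -0.02. Of 6 promyelocyte markers, ELANE, PRTN3, AZU1 and CTSG stood between 52.3 and 689 FPKM, CD33 was at 8.87 and 8.89 FPKM, while MPO, a defining granule enzyme of promyelocytes, was at 0.274 and 0.469 FPKM. The 5 promyelocyte markers that were tested summed to 1348 and 1075 FPKM. Among 4 erythroid markers, HBA1 and HBG1 summed to 6.39 and 11.96 FPKM and ALAS2 was listed at 0 in DOX(-). The lymphoid markers CD3E, CD3D and MS4A1 were listed at 0 in both, and CD79A was at 1.66 and 0.709 FPKM. The part of these marker differences in the results below was not tested.

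Many of the mitotic members share a promoter feature that their choice by name did not use. RefSeq promoters, from 250 bases before to 50 bases after a RefSeq transcription start (GRCh38.p14), were matched by symbol for 60 of the 75 members. That start can lie inside the gene as annotated in the deposited table, as for CENPA and PLK1. For members and tested protein-coding genes 1 promoter was kept per symbol, and the set of all promoters was used as listed. The letters of the cell cycle genes homology region, TTTGAA or TTCGAA on either strand, stood in 24 of 39 promoters of members outside the group of transport and other kinesins (61.5%). They stood in 2 of 21 promoters of that group (9.52%), in 16.4% of all 35116 promoters in the table and in 11.2% of the 7457 matched to tested protein-coding genes. Within 50 bases of the start, on either side, the letters stood in 22 of the 39 (56.4%), against 1 of 21, 5.01% of all promoters and 3.35% of those of tested protein-coding genes. By role, 10 of 12 mitotic kinesins held them, 4 of 6 outer kinetochore genes, 3 of 3 matched checkpoint genes and 4 of 12 matched genes of the constitutive network. The letters CCAAT, the box that NF-Y binds, on either strand, stood in 26 of the 39 promoters (66.7%), 6 of the 21 (28.6%), 34.6% of all promoters and 37.3% of those of tested protein-coding genes. TTGGCGC or TTCGCGC, letters of an E2F site, stood in 6 of the 39 (15.4%), 1 of the 21, 5.06% of all and 9.4% of those of tested protein-coding genes. An E2F match can overlap a CCAAT match, as in 167 promoters of the whole table, and none of the members' did. A match describes letters and shows no bound factor.

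**Figure D1:**
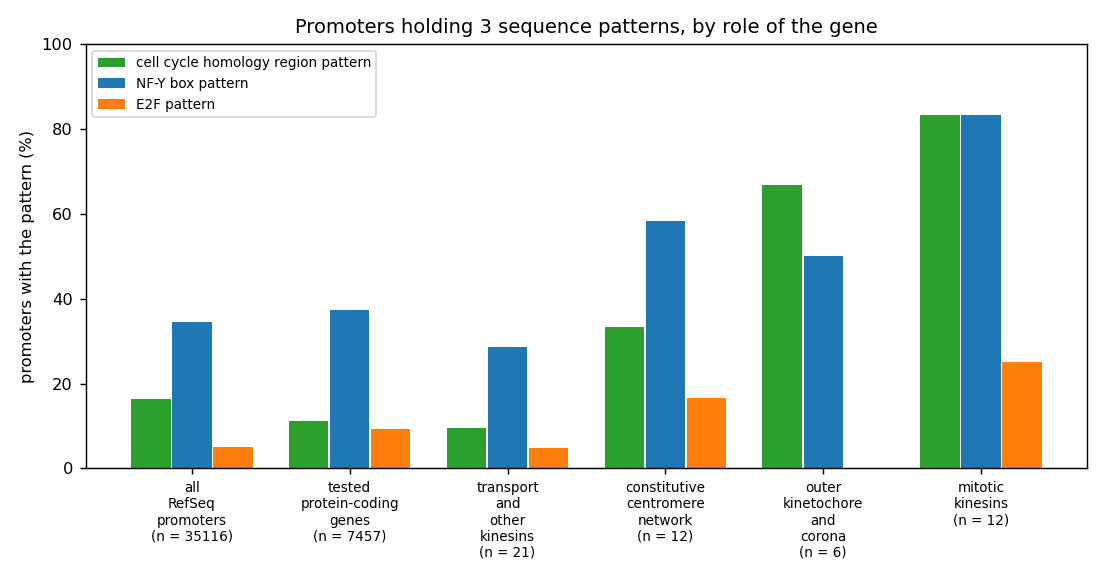
Bars give the percent of promoters that hold each of 3 sequence patterns on either strand (vertical axis from 0 to 100%), for all RefSeq promoters, tested protein-coding genes and 4 role groups, with n under each. The cell cycle homology region pattern reaches 83.3% in the 12 mitotic kinesins and 9.52% in the 21 transport and other kinesins.

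Promoters are printed 5′ to 3′ on the strand of the gene, with the 3 kinds of match in capitals, for CENPE, which had the largest difference, and for 4 genes chosen with their values known: the centromeric histone gene CENPA, the corona gene CENPF, the kinase gene PLK1 and KIF5B, a cargo motor, for contrast. The CENPA promoter lies at chr2:26785806-26786105 (plus strand), that of CENPE at chr4:103198294-103198593 (minus), that of CENPF at chr1:214602945-214603244 (plus), that of KIF5B at chr10:32056376-32056675 (minus) and that of PLK1 at chr16:23678639-23678938 (plus). In CENPA the letters TTTGAA begin 18 bases before the start, with ATTGG at 130 and 205 bases before it. In PLK1 they begin 29 bases before the start and CCAAT 73 bases before it. CENPF holds 4 CCAAT boxes and has TTTGAA at base 41 of the transcribed part. In KIF5B TTTGAA begins farther out, 140 bases before the start, and ATTGG stands 59 bases before it. KIF5B thus contrasts in role and in lacking the homology region letters within 50 bases of the start, though its window holds them. It is 1 of the 2 among 21 promoters of transport and other kinesins that hold the letters of the homology region. The CENPE window holds none of the 3 patterns and so has no capitals.
CENPA: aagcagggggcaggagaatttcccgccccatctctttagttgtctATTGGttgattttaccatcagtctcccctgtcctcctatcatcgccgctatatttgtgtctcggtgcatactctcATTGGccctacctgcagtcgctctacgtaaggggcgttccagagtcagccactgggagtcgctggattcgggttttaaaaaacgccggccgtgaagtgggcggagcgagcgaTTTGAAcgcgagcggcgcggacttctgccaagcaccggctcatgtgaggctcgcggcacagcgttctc
CENPE: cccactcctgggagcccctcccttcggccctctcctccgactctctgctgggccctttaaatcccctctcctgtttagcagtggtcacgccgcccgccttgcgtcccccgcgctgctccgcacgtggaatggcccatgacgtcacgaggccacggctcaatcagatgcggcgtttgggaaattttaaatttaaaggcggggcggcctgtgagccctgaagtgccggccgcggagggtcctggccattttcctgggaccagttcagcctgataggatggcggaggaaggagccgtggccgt
CENPF: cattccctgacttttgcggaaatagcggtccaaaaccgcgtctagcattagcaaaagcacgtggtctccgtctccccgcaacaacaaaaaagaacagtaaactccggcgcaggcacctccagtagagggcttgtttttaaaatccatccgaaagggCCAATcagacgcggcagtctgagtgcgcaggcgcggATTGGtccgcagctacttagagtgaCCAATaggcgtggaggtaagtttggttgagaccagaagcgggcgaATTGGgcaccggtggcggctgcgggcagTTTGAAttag
KIF5B: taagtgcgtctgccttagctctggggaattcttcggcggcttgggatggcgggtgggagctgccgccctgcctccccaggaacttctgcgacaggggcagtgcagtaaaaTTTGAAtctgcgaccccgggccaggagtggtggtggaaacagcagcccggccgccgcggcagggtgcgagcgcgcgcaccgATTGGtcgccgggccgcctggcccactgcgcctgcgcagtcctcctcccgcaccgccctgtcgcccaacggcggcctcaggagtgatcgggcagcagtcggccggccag
PLK1: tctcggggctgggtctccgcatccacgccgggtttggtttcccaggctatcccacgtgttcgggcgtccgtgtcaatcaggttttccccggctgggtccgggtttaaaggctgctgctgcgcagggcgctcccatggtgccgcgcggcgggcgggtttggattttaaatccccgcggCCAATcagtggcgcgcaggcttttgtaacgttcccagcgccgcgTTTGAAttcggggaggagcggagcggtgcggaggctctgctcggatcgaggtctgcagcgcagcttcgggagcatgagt

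Across the 60 tested members the difference between the libraries was small. Of these, 1 gene (CENPE) was at least 1.5-fold lower in DOX(-), which is 1.67% of them, where 4.06% of all genes tested were, and 0 were 1.5-fold higher, where 3.11% of all genes were. All members are protein-coding, while all genes tested include noncoding ones. Of 9283 protein-coding genes tested, 277 were 1.5-fold lower and 219 were 1.5-fold higher. The median log2 ratio of the members was -0.07, beside -0.02 over all genes tested, and 35 of 60 (58.3%) were below 0, where 53.4% of all genes were. Their log2 ratios ran from -0.76 in CENPE to 0.39 in KIF17. Counting intervals lay below equal levels for 9 of 60 members (15%), where 8.53% of genes tested had such an interval, and above for 4 of 60 (6.67%), where 7.59% did. The 9 were CENPE, SPC25, KIF11, KIF14, KIF18B, KIF20B, KIF4A, KIF3B and KIF5B, and the 4 were CENPB, TPX2, KIF21B and KIF24. Which members are listed also depends on the annotated length of the shortest transcript, since a longer one gives more estimated fragments. KIF24, at a log2 ratio of 0.23 with a shortest transcript of 5729 bases, is listed. NDC80, at -0.44 with one of 289 bases, is not. The shares of intervals are not like for like either, since higher levels give more fragments and narrower intervals. Median levels were 7.79 and 7.91 FPKM in the members and 4.70 and 4.88 FPKM in all genes tested. In bulk RNA, fewer cells in mitosis and less RNA per cell cannot be told apart. The 10 proliferation and phase genes (MKI67, TOP2A, PCNA, CCNA2, CCNB1, CCNB2, CDK1, CCNE2, MCM2 and RRM2) had log2 ratios between -0.42 and 0.11, with a median of -0.09 and none at 1.5-fold. Their part in the members' values was not tested.

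**Figure D2:**
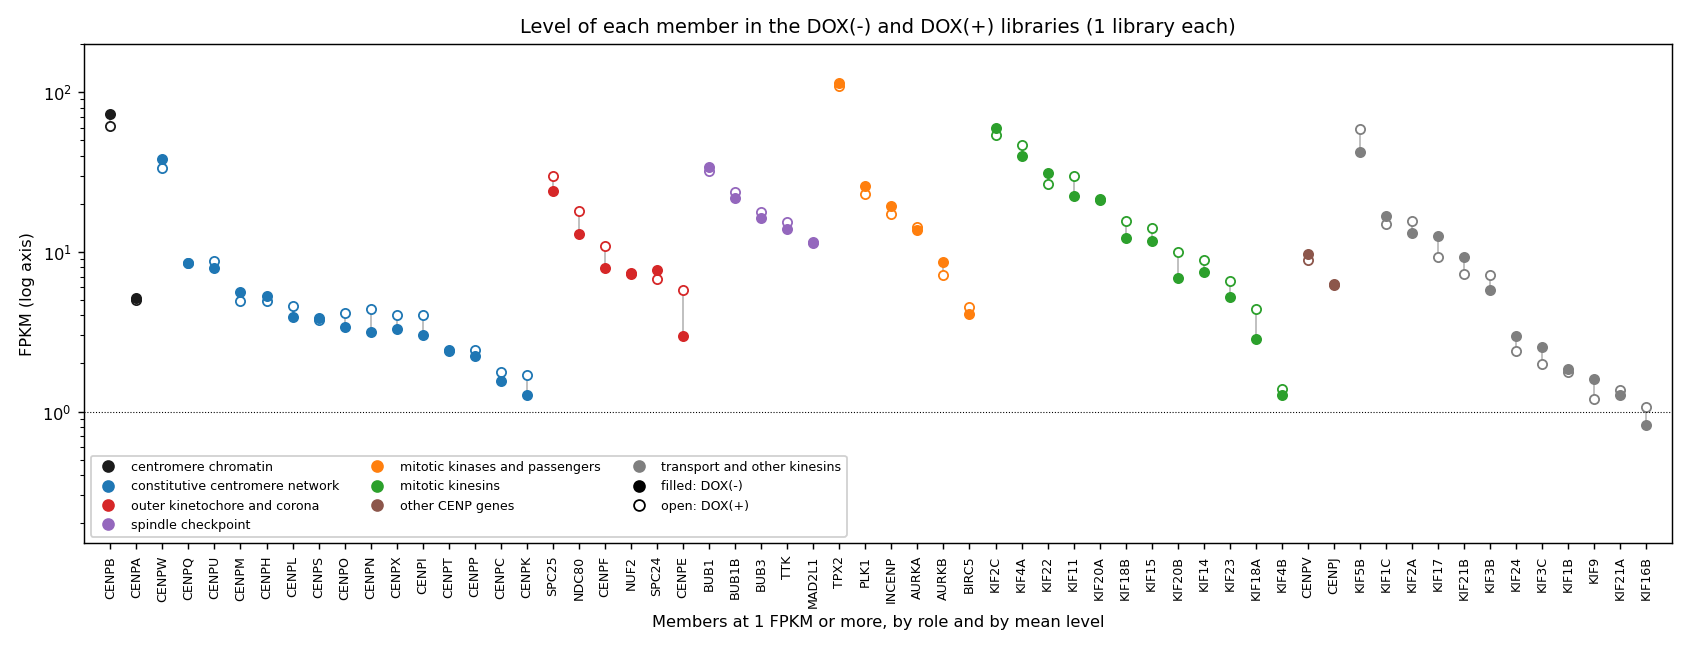
Each of the 60 tested members on the horizontal axis has its FPKM in DOX(-) as a filled point and in DOX(+) as an open point, on a log axis, coloured by role, with 1 library each. TPX2 is the highest at 114.6 and 108.4 FPKM, and the widest gap on this axis is that of CENPE, at 2.99 and 5.75 FPKM.

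**Figure D3:**
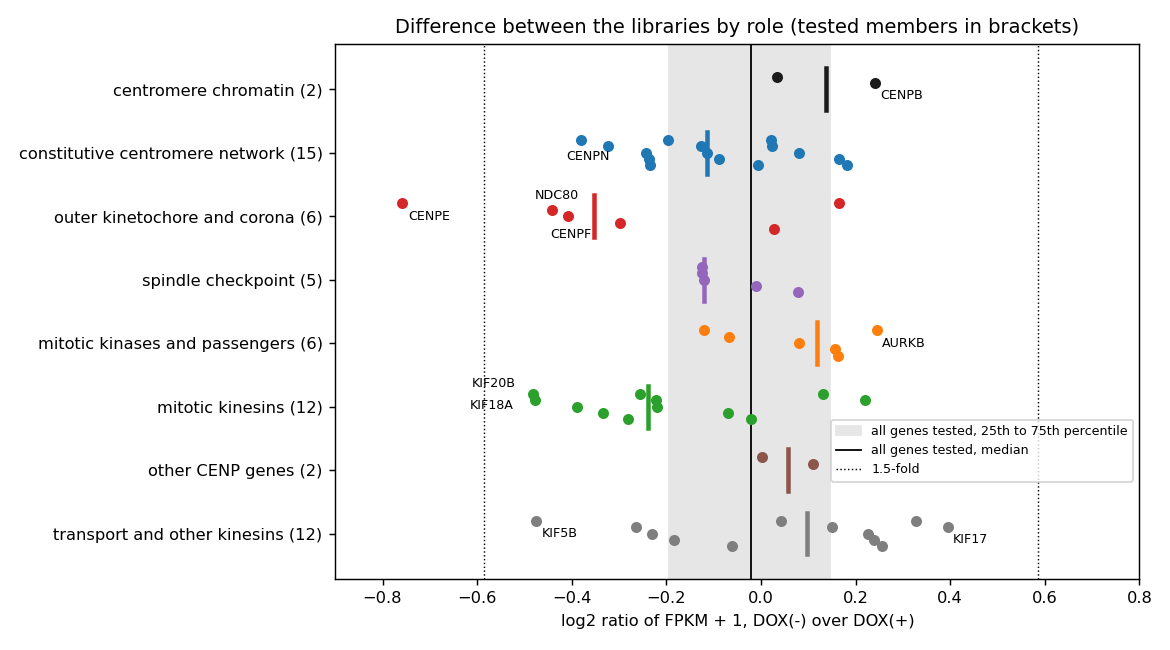
The log2 ratio of FPKM + 1 (horizontal axis, DOX(-) over DOX(+)) of each tested member by role, with a thick bar at the median of the role, over the 25th to 75th percentile of all 11525 genes tested (grey). CENPE is the 1 member past the dotted 1.5-fold lines, and the outer kinetochore and mitotic kinesin medians lie at -0.35 and -0.24.

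In centromere chromatin both members were near equal or higher in DOX(-). CENPA, the histone variant that marks the site, was at 5.16 and 5.02 FPKM (log2 ratio 0.03). Its exons overlap those of SLC35F6 on the same strand, so its value is uncertain. CENPB, which binds a sequence box in alpha satellite DNA, was at 72.9 and 61.5 FPKM (log2 ratio 0.24). It has 1 annotated transcript, so its fragments could be read off directly as 3432 and 3235, and its counting interval was 1.13 to 1.24. CENPB was the second most abundant member, above 10 times the level of CENPA per length.

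The constitutive network had 15 tested members, 10 of them below 0, none 1.5-fold different and a median log2 ratio of -0.12. Most were low, with median levels of 3.39 and 4.16 FPKM. The exception was CENPW, a histone-fold partner of CENPT, at 38.3 and 33.7 FPKM (log2 ratio 0.18), while CENPT itself was at 2.44 and 2.38 FPKM. These partners are held in the same complex, and their transcripts differed more than 10-fold in level per length in both libraries. The largest differences were in CENPN, which reads the CENP-A nucleosome, at 3.14 and 4.39 FPKM (log2 ratio -0.38, counting interval 0.360 to 1.34), and in CENPI, at 3.0 and 4.0 FPKM (-0.32, 0.388 to 1.35). CENPK followed at 1.28 and 1.69 FPKM (-0.24, 0.218 to 2.34). All 3 intervals included equal levels, and on the longest transcript those of CENPN and CENPI, 0.568 to 0.894 and 0.609 to 0.916, did not. CENPC, which links CENP-A chromatin to the outer kinetochore, was at 1.55 and 1.76 FPKM. CENPH was at 5.28 and 4.94 FPKM, CENPM at 5.60 and 4.89 FPKM and CENPL at 3.89 and 4.61 FPKM. In the subcomplex of CENPO, CENPP, CENPQ and CENPU, the levels were 3.39 and 4.16, 2.24 and 2.44, 8.53 and 8.57, and 7.93 and 8.75 FPKM. CENPQ has 1 transcript. The histone-fold pair CENPS and CENPX, which also acts in DNA repair, was at 3.84 and 3.76 and at 3.29 and 4.05 FPKM, and CENPS shares exons with the readthrough gene CENPS-CORT.

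The outer kinetochore and corona had the lowest group median, -0.35, with 4 of 6 members below 0. CENPE, the kinesin that carries chromosomes towards the spindle equator, was at 2.99 and 5.75 FPKM, 1.92-fold lower in DOX(-). The gene lies at chromosome 4, 103105806 to 103198409 (GRCh38, minus strand). Its log2 ratio was -0.76 and its counting interval 0.248 to 0.977, on 14 and 31 estimated fragments, or 0.463 to 0.584 on the longest transcript. With tested protein-coding genes cut into 10 equal classes of GC content, those in the class of CENPE had a median of -0.19, and relative to them CENPE stood at -0.57, just short of the size rule. CENPF, a large coiled-coil protein of the corona (chromosome 1, 214603195 to 214664588), was at 7.96 and 10.9 FPKM (-0.41, 0.483 to 1.06). On the longest transcript the interval of CENPF was 0.682 to 0.783. The NDC80 complex has 4 subunits among the members. NDC80 (chromosome 18, 2571511 to 2616635) was at 12.9 and 17.9 FPKM (-0.44, 0.516 to 1.003, or 0.642 to 0.813 on the longest transcript) and SPC25 at 24.1 and 29.9 FPKM (-0.30, 0.672 to 0.971). Their partners were NUF2, at 7.42 and 7.26 FPKM (0.03, 0.605 to 1.71), and SPC24, at 7.66 and 6.72 FPKM (0.17, 0.747 to 1.74). Both of these intervals included equal levels on either transcript, and NUF2 was below 0 when values were rescaled without mitochondrial genome genes. NDC80 pairs with NUF2 at the microtubule end of the complex and SPC24 with SPC25 at the chromatin end.

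The spindle checkpoint genes were close to equal, with 4 of 5 below 0 and a median of -0.12. BUB1, the kinase that marks centromeric chromatin, was at 34.1 and 32.2 FPKM (0.08), and MAD2L1, the inhibitor of CDC20, at 11.4 and 11.5 FPKM (-0.01). The other 3 had nearly the same log2 ratio. TTK, the kinase that starts checkpoint signalling, was at 13.9 and 15.3 FPKM (-0.13, counting interval 0.622 to 1.31). BUB1B, the BUBR1 subunit of the checkpoint complex, was at 21.7 and 23.7 FPKM (-0.13, 0.736 to 1.13), with exons shared with the readthrough gene BUB1B-PAK6. BUB3 was at 16.3 and 17.9 FPKM (-0.12, 0.748 to 1.12). These 3 intervals included equal levels. On the longest transcript those of TTK, 0.831 to 0.998, BUB1B, 0.849 to 0.982, and BUB3, 0.864 to 0.970, lay below equal levels.

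Among mitotic kinases and passenger proteins, 4 of 6 were above 0 and the median was 0.12. TPX2, 1 of the 4, was below 0 when values were rescaled without mitochondrial genome genes. TPX2, which activates Aurora A and nucleates spindle microtubules, was the most abundant member of all at 114.6 and 108.4 FPKM (log2 ratio 0.08, counting interval 1.02 to 1.09). AURKA, Aurora A itself, was at 13.7 and 14.4 FPKM (-0.07). PLK1, a kinase of mitotic entry and kinetochore attachment, was at 25.99 and 23.1 FPKM (0.16, 0.935 to 1.36). Of the chromosomal passenger complex, AURKB was at 8.65 and 7.14 FPKM (0.25, 0.771 to 1.86), INCENP, its scaffold, at 19.3 and 17.2 FPKM (0.16, 0.908 to 1.39), and BIRC5, survivin, at 4.10 and 4.54 FPKM (-0.12, 0.520 to 1.57). The 3 intervals of the passenger genes included equal levels, but on the longest transcript that of INCENP, 1.04 to 1.21, did not, and nor did that of PLK1, 1.05 to 1.202.

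**Figure D4:**
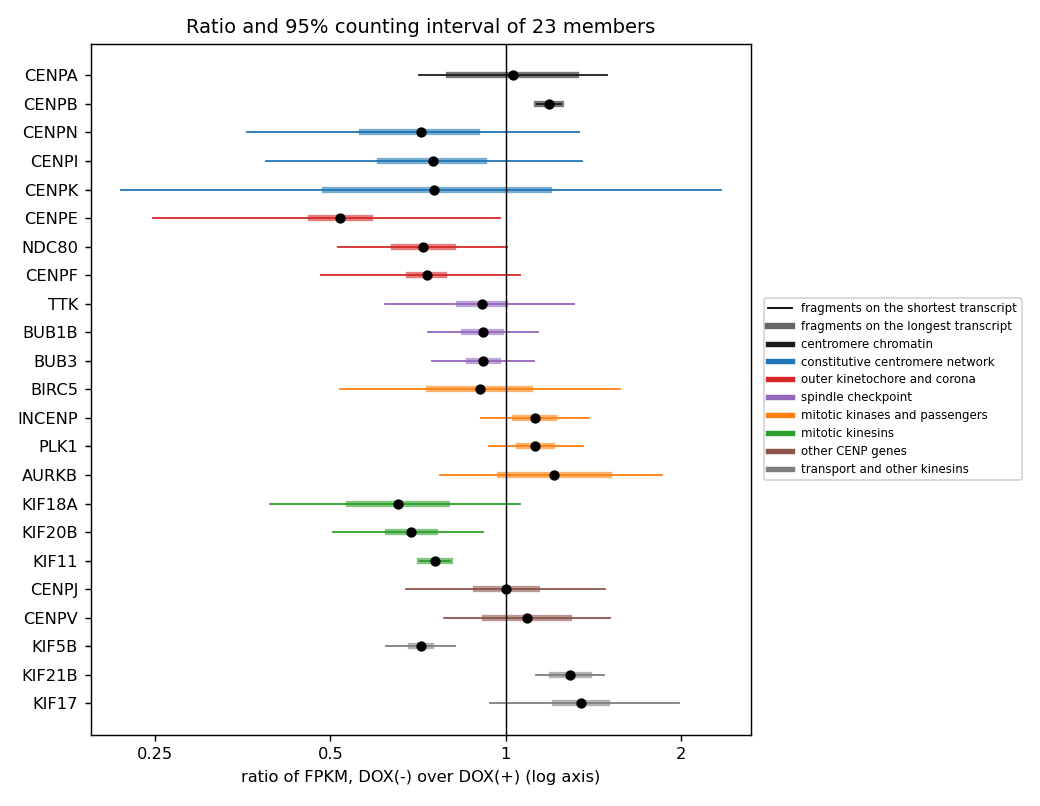
Points give the plain FPKM ratio, DOX(-) over DOX(+), on a log axis for 23 members, with 95% counting intervals on the shortest (thin) and longest (thick) annotated transcript, coloured by role. The thin intervals of CENPE, KIF20B, KIF11 and KIF5B lie below 1 and those of CENPB and KIF21B above it.

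Mitotic kinesins were mostly lower in DOX(-), by less than 1.5-fold. Of 12 members, 10 were below 0, with a median of -0.24, and 5 had counting intervals below equal levels and 0 above, where 8.53% and 7.59% of genes tested had. KIF11, the motor that pushes spindle poles apart (chromosome 10, 92593286 to 92655395), was at 22.4 and 29.7 FPKM (log2 ratio -0.39). Having 1 transcript, it was counted at 1807 and 2671 fragments, with an interval of 0.712 to 0.803, which covers counting error only. Protein-coding genes in the GC class of KIF11 had a median of -0.19, and relative to them KIF11 stood at -0.20. When values were rescaled without mitochondrial genome genes, KIF11 was at -0.49. KIF20B, a motor of late cytokinesis (chromosome 10, 89701610 to 89774939), was at 6.90 and 10.03 FPKM (-0.48, 0.504 to 0.915). KIF18A, which damps chromosome movements at the spindle equator (chromosome 11, 28020620 to 28108308), was at 2.86 and 4.37 FPKM (-0.48, 0.394 to 1.06, or 0.537 to 0.793 on the longest transcript). By plain FPKM the KIF18A values differed 1.53-fold. KIF15, which can stand in for KIF11, was at 11.6 and 14.1 FPKM (-0.25), and KIF18B at 12.2 and 15.6 FPKM (-0.33). Lower in DOX(-) as well were KIF14, of cytokinesis, at 7.44 and 8.85 FPKM (-0.22), KIF23, of the central spindle, at 5.22 and 6.55 FPKM (-0.28), and the chromokinesin KIF4A at 39.9 and 46.6 FPKM (-0.22). KIF20A, also a motor of the central spindle, was at 21.2 and 21.6 FPKM (-0.02). The 2 members above 0 were the microtubule depolymerase KIF2C, at 59.5 and 54.3 FPKM (0.13), and the chromokinesin KIF22, at 31.1 and 26.6 FPKM (0.22). KIF4B, an intronless copy of KIF4A, was at 1.27 and 1.38 FPKM, and reads of the near-identical KIF4A could be assigned to it.

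The remaining 2 CENP genes were near equal. CENPJ, a centriole protein despite its name, was at 6.25 and 6.24 FPKM (0.00, counting interval 0.675 to 1.48), and CENPV at 9.72 and 8.93 FPKM (0.11, 0.783 to 1.51).

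Transport and other kinesins split by level and by direction. Of 27 members, 12 were tested, 5 of them below 0, with a median of 0.10. KIF5B, the ubiquitous heavy chain of conventional kinesin (chromosome 10, 32009010 to 32056431), was by far the highest at 42.2 and 59.0 FPKM (-0.47, 0.622 to 0.819). KIF17, known as a cargo motor of neurons and cilia, stood at 12.5 and 9.29 FPKM (0.39, 0.939 to 1.98, or 1.22 to 1.49 on the longest transcript), and KIF21B, a regulator of microtubule growth, at 9.34 and 7.24 FPKM (0.33, 1.13 to 1.48). The vesicle motor KIF1C was at 16.7 and 14.99 FPKM (0.15). KIF2A, a depolymerase whose exons overlap IPO11, was at 13.2 and 15.6 FPKM (-0.23). KIF3B, a subunit of heterotrimeric kinesin, was at 5.79 and 7.16 FPKM (-0.26), while KIF3C, an alternative subunit, was at 2.55 and 1.97 FPKM (0.26). Their common partner KIF3A was below the filter at 0.551 and 0.700 FPKM. KIF24, of the centriole, was at 2.95 and 2.38 FPKM (0.23, 1.04 to 1.48). The other 4 tested members were low: KIF1B at 1.84 and 1.76 FPKM, with an overlap to RN7SL731P, KIF9 at 1.59 and 1.196, KIF21A at 1.27 and 1.37, and KIF16B at 0.826 and 1.08.

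The 15 members under 1 FPKM in both libraries were all of this group. KIF12, KIF19, KIF1A, KIF26A, KIF2B, KIF6 and KIF7 were listed at 0 in both. For these 7, a count of 0 allows up to 3 fragments, which on the shortest transcript equals 0.0320 to 0.493 FPKM in DOX(-) and 0.0287 to 0.441 FPKM in DOX(+). KIF5A, the neuronal heavy chain, was listed at 0 and at 0.00754 FPKM, and KIF5C, its relative, was at 0.621 and 0.988 FPKM. KIF13A was at 0.00693 and 0.0403 FPKM, KIF25 at 0.0530 and 0.0948, KIF26B at 0.299 and 0.230, KIF13B at 0.841 and 0.995, and KIF27 at 0.8997 and 0.990.

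Log2 ratios of the members were also set against the base composition of their transcripts. Across the 60 tested members the log2 ratio correlated with GC content of the longest protein-coding transcript (Pearson's r 0.60, Spearman's rho 0.60, or 0.58 and 0.58 without CENPE). The values were 0.88 and 0.90 over the 12 transport and other kinesins and 0.52 and 0.52 over the 48 remaining members. All these points come from the same 2 libraries, and genes are not independent replicates. Over 9278 tested protein-coding genes the values were 0.24 and 0.33, and over 48 other genes of the same machinery, described below, 0.19 and 0.33. Below 40% GC, 11 of 13 members were below 0, with a median of -0.22. The 2 exceptions were CENPW and NUF2. In the same range 1132 of 1430 protein-coding genes (79.2%) were below 0, with a median of -0.17. Between 40 and 50% GC, 19 of 27 members were below 0 (median -0.13), beside 61.1% of protein-coding genes (median -0.06). Above 50% GC, 5 of 20 members were below 0 (median 0.16), beside 39.8% of protein-coding genes (median 0.05), and the 5 were CENPO, CENPP, CENPX, BIRC5 and KIF18B. Of the other genes of the machinery in that range, 9 of 13 were below 0 (median -0.09). Relative to the median of protein-coding genes in the same of 10 GC classes, a measure added after seeing the data, the members' median was 0.00, with 30 of 60 below 0. On that measure the lowest members were CENPE at -0.57, KIF18B at -0.40, CENPN at -0.39, KIF5B at -0.34 and NDC80 at -0.30. The highest were CENPW at 0.37, KIF17 at 0.33, KIF21B at 0.26, KIF24 at 0.21 and KIF3C at 0.19. The part of base composition in any member's value was not tested.

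**Figure D5:**
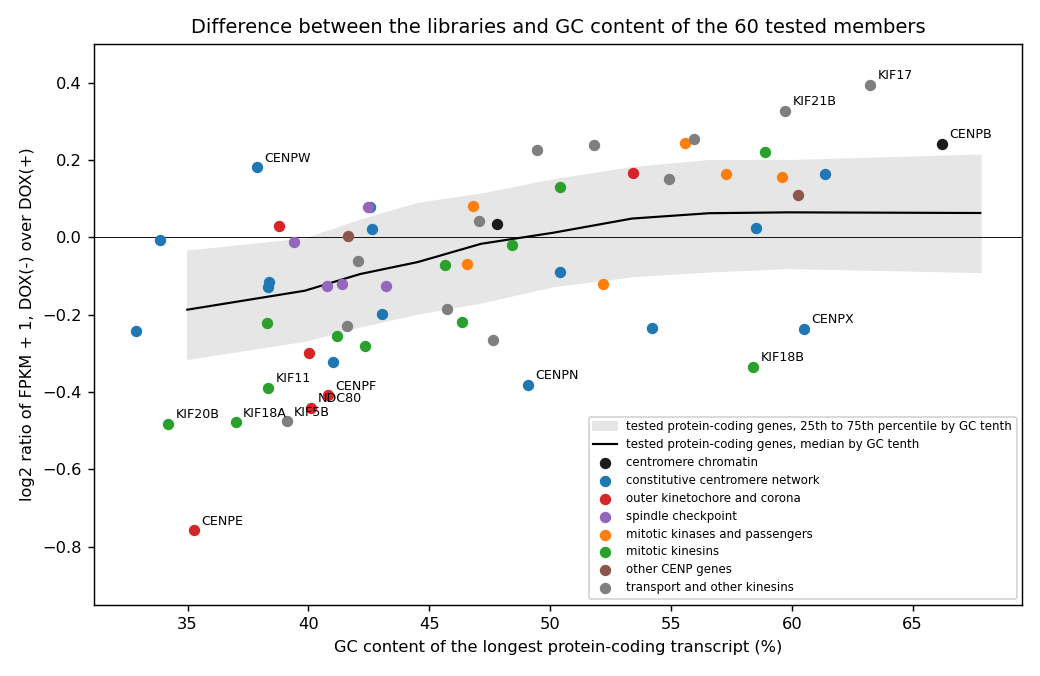
Log2 ratio of FPKM + 1 (vertical axis, DOX(-) over DOX(+)) against GC content in percent (horizontal axis) for the 60 tested members, coloured by role, over the median (line) and 25th to 75th percentile (grey) of tested protein-coding genes in 10 classes of GC content. The line runs from -0.19 in the lowest class to 0.06 in the highest, and the members below 40% GC lie mostly under 0.

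Other genes of the same machinery, in 6 lists written from textbook knowledge, were also mostly below 0. Of 51 genes 48 were tested and 36 were below 0, where 53.4% of all genes were, with a median of -0.12. At least 1.5-fold lower were 4, where 4.06% of all genes were, and 0 were 1.5-fold higher. DSN1, of the MIS12 complex that joins inner and outer kinetochore, was at 2.15 and 4.50 FPKM (-0.80, counting interval 0.284 to 0.805). SKA3, of the SKA complex that tracks microtubule ends with NDC80, was at 12.4 and 20.3 FPKM (-0.67, 0.464 to 0.810). SGO2, a shugoshin that protects centromeric cohesion, was at 3.92 and 7.19 FPKM (-0.73, 0.349 to 0.829). KIFC2 was the fourth, at 1.12 and 2.53 FPKM (-0.74), with an interval of 0.142 to 1.22 that included equal levels. Relative to protein-coding genes in the same GC class, KIFC2 stood at -0.80, DSN1 at -0.74, SKA3 at -0.57 and SGO2 at -0.55. On that measure, added after seeing the data, SKA3 and SGO2 were short of the size rule. In the list of CENP-A loading, MIS18A was at 19.5 and 22.6 FPKM (-0.20), while HJURP, the CENP-A chaperone, was at 10.7 and 9.52 FPKM (0.15). Of checkpoint and corona adaptors, SPDL1 was at 2.98 and 3.93 FPKM (-0.31) and ZWILCH at 3.30 and 4.21 FPKM (-0.28). SGO1 was at 3.08 and 3.67 FPKM (-0.20). The spindle list had 14 of 16 genes below 0, with ASPM, of the spindle poles, at 5.92 and 8.68 FPKM (-0.48, 0.598 to 0.779) and ECT2, of cytokinesis, at 1.805 and 2.56 FPKM (-0.35). Kinesin light chains, the cargo-binding partners of KIF5B, were low, with KLC1 at 2.20 and 2.45 FPKM, KLC2 at 1.53 and 1.82 FPKM and KLC4 at 2.13 and 1.88 FPKM. KLC3 and AURKC were listed at 0 in both libraries, and KIFC3 was at 0.0301 and 0.0269 FPKM.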

How the data were processed

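RNA-seq of 2 HL60-EIF2S3 libraries, 1 per condition, was used as deposited. The values are FPKM per gene, which the authors computed before deposit, per the file headers. Per the submitters' processing notes, the tools were HISAT2 2.1.0, StringTie 1.3.4b, CASAVA 1.8 and edgeR, on GRCh38 (also listed as hg38), and no roles are stated. The sources used here do not give RNA selection, strandedness or annotation release. Without strand, reads of antisense partners cannot be told apart.

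With 1 library a group no test was made, so differences were called at 1.5-fold on log2(FPKM + 1), which understates changes of low genes, among genes with at least 1 FPKM in DOX(-), DOX(+) or both. Transcript lengths, GC content and same-strand exon overlaps came from GENCODE release 29, which held 57980 of the 58302 identifiers and the same locus for 74 of 75 members. Library totals were recovered from genes of 1 transcript, whose values up to 100 fragments were whole within 0.02 in 99.98% (5526 genes) and 99.97% (5918 genes). Ratio intervals are exact conditional 95% Clopper-Pearson intervals (Python 3.11.15, pandas 2.3.3, scipy 1.17.1). They were run on simulated fragments drawn with counting error alone on the longest transcript. That run checks the formula and not the estimate of fragments on the shortest transcript. They cover counting error alone, since the labels name no molecular identifiers to separate PCR copies. Promoters came from RefSeq (GRCh38.p14). Protein sequences were not analysed here.

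Named genes were all members. Full statistics went to members past 1.5-fold, the 3 largest differences in each role and CENPA, NDC80, AURKB, PLK1, BIRC5, KIF11 and KIF5B. Of the other genes of the machinery, those past 1.5-fold and the 2 largest differences in each list were named, except 1 gene that is not reported here, and HJURP, KLC1, KLC4, KLC3, AURKC and KIFC3 were added after their values were seen. Members, lists and rules were chosen with earlier results of these data known. Alternatives covered the pseudocount, the filter, 3 scalings, the size rule, overlapping genes, the transport kinesins, the mean, transcript length for fragments and, added after seeing the data, GC content.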

Additional observations from a re-analysis of the deposited data

How the results depend on the processing

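No member was 1.5-fold higher in DOX(-) under any alternative run. The count of members 1.5-fold lower, 1 in the main setting, was 2 with a pseudocount of 0.1 FPKM (KIF18A and CENPE), 3 when values were rescaled without mitochondrial genome genes (KIF20B, KIF18A and CENPE), and 0 with a mean of 5 FPKM or more, relative to the same GC class, or by a 2-fold rule. The filter at a mean of 5 FPKM removes CENPE itself. The median log2 ratio of members stayed below 0 in the other alternatives and was 0.0044 relative to the same GC class, an alternative chosen after seeing the data. Without mitochondrial genome genes 44 of 60 members were below 0, and the median over all genes tested was itself -0.11. Counting intervals left out equal levels for 13 members on the shortest transcript and for 33 on the longest (21 lower, where 23.5% of genes tested were, and 12 higher, where 18.1% were), since a longer transcript gives more estimated fragments. Signs turned for CENPQ, KIF20A and MAD2L1 under median-of-ratios and trimmed-mean scaling, for 9 members without mitochondrial genome genes (CENPT, KIF1B, CENPJ, CENPA, NUF2, TPX2, BUB1, CENPH and CENPS) and for 7 relative to GC content. Counted on the shortest transcript, most members of a few FPKM rest on few fragments, so differences under 1.5-fold were mostly not detectable there. KIF24, at 2.95 and 2.38 FPKM, rested on 280 and 252 fragments, with an interval of 1.04 to 1.48. On the longest transcript the intervals of CENPN, CENPI, CENPO and KIF3C also left out equal levels, at differences under 1.5-fold. No paired analysis was possible because each group has 1 library and no replicate number.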

Other observations

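Among the 50 tested members with a matched promoter, the 26 with letters of the cell cycle genes homology region had median levels of 11.5 and 12.8 FPKM, DOX(-) first, and a median log2 ratio of -0.22. The 24 without them had median levels of 4.81 and 6.23 FPKM and a median log2 ratio of 0.01. The sets differed in role as well, since 24 of the 26 were outside the transport and other kinesins. The median log2 ratio was 0.10 in the tested transport and other kinesins and -0.10 in the members outside that group. CENPE, the lowest member, was in the set without the letters. The transcripts of the set with the letters also had the lower GC content, with a median of 41.8% against 49.4%. The parts of letters, role and GC content in these medians were not tested. The log2 ratio was also set against transcript length. Pearson's r with the log of the length was -0.22 over the 60 tested members and -0.17 without CENPE. It was -0.45 over the 48 outside the transport and other kinesins, 0.06 over the 12 of that group and -0.10 over 9278 protein-coding genes. These are descriptions over genes of the same 2 libraries.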
